A study of Mus musculus with 12 samples.

Results

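The actin cortex is the thin net of actin filaments beneath the cell membrane, and 10 genes for proteins that shape it or tie it to membranes and adhesions were followed here in mouse blastocysts and embryonic stem (ES) cells with and without Dis3l. The 10 are Baiap2l1, Baiap2, Tes, Zyx, Coro1b, Coro1c, Coro2a, Ezr, Eps8 and Vil1, of 45801 gene IDs listed in the deposited tables, and they were found by gene symbol. Baiap2l1, Tes and Coro2a were picked because they changed in the authors' deposited blastocyst table, with an adjusted p-value under 0.05. The remaining 7 are relatives or partners of those 3. Blastocyst values of the 10 genes are therefore given as a description, and only the ES cell table gives a test that the choice did not use.

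Dis3l encodes an exonuclease of the RNA exosome in the cytoplasm, a complex that trims and degrades transcripts. There are 12 samples, 3 in each of 4 groups: blastocysts of the genotypes Dis3L WT and Dis3L KO, and ES cells of the same genotypes. Blastocysts were collected 96 h after the hCG injection that followed PMSG in superovulated females, and each library came from a single embryo, with Tn5 transposase cutting the cDNA. ES cell lines were derived from blastocysts on inactivated mouse embryonic fibroblast feeders, kept in serum and LIF, and sequenced as stranded, ribosomal-RNA-depleted libraries. The labels name neither strain, allele, embryo sex nor the number of independent ES cell lines, and nothing says that the ES cell samples of a group came from separate lines or cultures, so their p-values may measure technical spread only.

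Membrane-bound actin is organised by several protein families that work side by side. I-BAR proteins such as BAIAP2L1 (also called IRTKS) and BAIAP2 (IRSp53) bend the membrane outward and recruit EPS8, a filament capping and bundling protein, to microvilli and filopodia. Ezrin links the membrane to filaments in microvilli, and villin bundles and severs those filaments. Testin and zyxin are LIM domain adaptors of focal adhesions and of cell junctions. Coronins bind filaments and tune the ARP2/3 complex, which nucleates branched actin. In the blastocyst the outer trophectoderm is a polarised epithelium with ezrin-rich apical microvilli.

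The deposited tables give a mean, a log2 fold change, its standard error and p-values per gene, without the direction of the comparison. Whole reads in each library behind those means were solved for, since each deposited mean adds up whole reads that carry a fixed weight in each library. A "column" is one such library, on the positive side if it raises the deposited log2 fold change and on the negative side if it lowers it. No column was assigned to a sample or a genotype, so "lower on the positive side" says nothing of which genotype was lower. The blastocyst table held 3 columns a side, and the ES cell table held 2 a side, fewer than the 6 ES cell samples of the labels. Relative depths ran from 0.695 to 1.62 in blastocysts and from 0.759 to 1.25 in ES cells. Blastocyst columns held 1091714 to 2565599 reads in the genes solved, and ES cell columns 631863 to 1036406 reads in genes with a mean under 350. The targeted gene Dis3l had 26, 8 and 0 blastocyst reads in positive-side columns against 10, 4 and 8, and 14 and 8 against 39 and 39 reads in ES cells. Reads of Dis3l were thus present on both sides in both materials.

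The 3 picked genes have GC-rich proximal promoters at their first start, shown here because they are the genes that were picked for their blastocyst values. The 250 bases before the transcription start are from RefSeq on GRCm38.p6, 5′ to 3′ along the gene's strand, with capitals marking the GC box GGGCGG or its reverse complement, a letter pattern read by SP and KLF factors. The windows are chr5:144358113-144358362 on the minus strand for Baiap2l1, chr6:17064899-17065148 on the plus strand for Tes and chr4:46601930-46602179 on the minus strand for the first of 2 starts of Coro2a.
Baiap2l1: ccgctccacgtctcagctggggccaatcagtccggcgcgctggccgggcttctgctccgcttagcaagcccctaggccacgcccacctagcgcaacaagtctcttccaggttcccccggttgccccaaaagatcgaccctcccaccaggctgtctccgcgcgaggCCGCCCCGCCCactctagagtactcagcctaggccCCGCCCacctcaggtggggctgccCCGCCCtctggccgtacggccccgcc
Tes: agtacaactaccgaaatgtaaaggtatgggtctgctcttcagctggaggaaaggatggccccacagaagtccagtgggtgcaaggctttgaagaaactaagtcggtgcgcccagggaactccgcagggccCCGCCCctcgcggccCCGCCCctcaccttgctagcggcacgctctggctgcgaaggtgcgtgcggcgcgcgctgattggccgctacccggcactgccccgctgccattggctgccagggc
Coro2a: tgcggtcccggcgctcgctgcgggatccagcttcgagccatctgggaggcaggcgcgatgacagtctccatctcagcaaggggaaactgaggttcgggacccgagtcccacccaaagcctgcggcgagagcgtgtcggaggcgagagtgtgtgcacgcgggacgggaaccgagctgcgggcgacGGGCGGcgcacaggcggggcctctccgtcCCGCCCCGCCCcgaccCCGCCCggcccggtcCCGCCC
GC content was 70.4% for Baiap2l1, 64.8% for Tes and 73.6% for Coro2a, against a median of 52.4% over all promoters. The 5 other genes with a promoter entry were also GC-rich, from 62.8% for Vil1 to 76.8% for Coro1c, so a high GC content is not particular to the picked genes. Searched on both strands, with overlapping matches counted separately, the window of Baiap2l1 held 4 GC boxes, that of Tes 2 and that of Coro2a 5. The second start of Coro2a held none and was not GC-rich, at 49.2%. Promoter entries were found for 8 of the 10 genes (none for Coro1b and Eps8), and each first start held at least 1 GC box. A GC box stood in 32.74% of all 32851 promoters of that length and in 76.47% of the 9178 with a GC content of at least 60%, so its presence is common among GC-rich promoters. The TEAD pattern GGAATG, of the factors that act in trophectoderm, was in none of the 8 first starts and in the second start of Coro2a, against 12.64% of all promoters and 8.13% of the GC-rich ones. The AP-2 pattern GCCNNNGGC was in the first starts of Baiap2, Tes, Coro2a and Vil1 and in the second of Coro2a, against 13.73% of all promoters and 30.32% of the GC-rich ones. Vil1 alone held a CArG box, the pattern of serum response factor, 73 to 64 bases before its start, and 1.47% of all promoters hold one. These are letter matches in a window and not binding data.

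In blastocysts, Baiap2l1, Tes and Coro2a were each lower in all 3 positive-side columns than in any negative-side column. For these 3 genes the authors' deposited table gave adjusted p-values under 0.05 with negative log2 fold changes, where 0.0855% of the 15209 genes tested were called negative. Because the genes were picked on this comparison, nothing is read from that count. The other 7 genes overlapped between the sides. Columns lay apart with the positive side lower in 5.28% of the 14601 genes both tested and solved. The authors' deposited table gave the 10 genes a median log2 fold change of −0.78, the 7 that were not picked −0.08, and all tested genes −0.04. In bulk embryo libraries fewer cells of a type and less RNA per cell cannot be told apart.

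**Figure D1:**
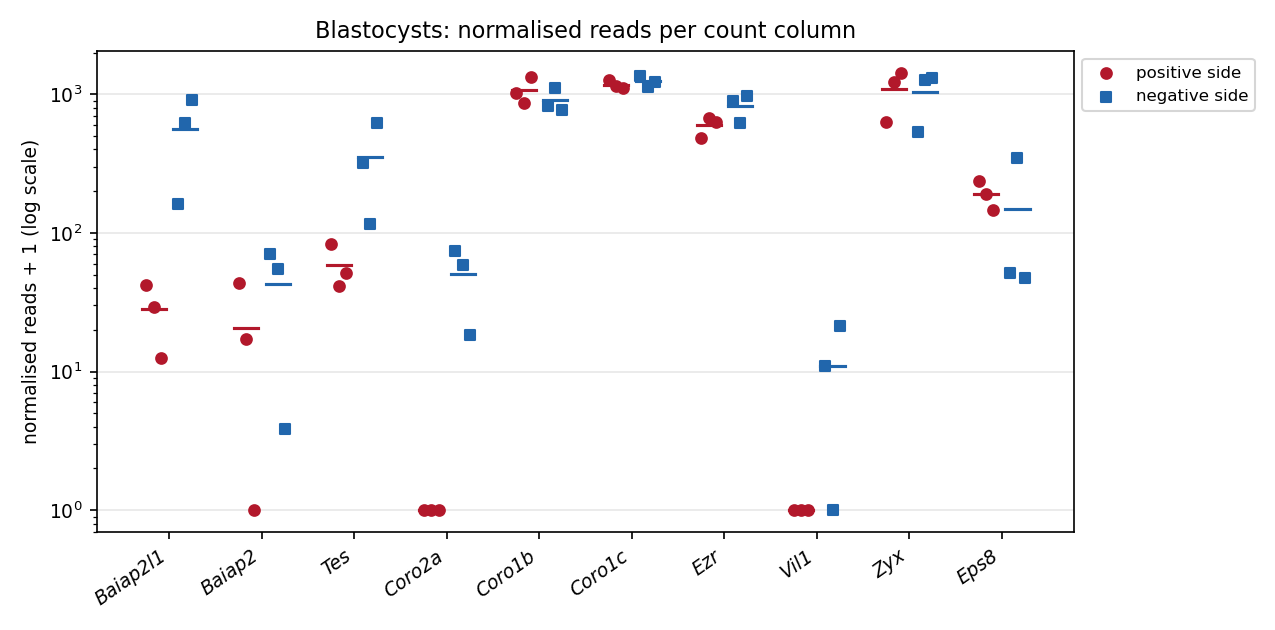
Normalised reads plus 1 (log axis) of the 10 genes in each blastocyst column, circles for the 3 positive-side and squares for the 3 negative-side columns, with lines at the side means. Baiap2l1, Tes and Coro2a show no overlap between the sides, and Coro2a and Vil1 sit at 0 reads in all 3 positive-side columns.

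Among the I-BAR adaptors, Baiap2l1 (ENSMUSG00000038859, chr5:144264526-144358112, minus strand, GRCm38, protein-coding) carried the steepest difference of the 3 picked genes relative to its error. Positive-side columns held 41.4, 28.4 and 11.4 normalised reads, against 161.4, 617.6 and 900.6 in those of the negative side. The lowest negative-side column was well above the highest positive-side one, and both sides spread several-fold within themselves. Side means were 27.1 ± 15.0 and 560 ± 373 (SD, n = 3 columns each), a 20.7-fold difference. The authors' deposited table gave a log2 fold change of −4.35 ± 0.60 (SE, adjusted p = 6.94e-09). Leaving out each column in turn kept the log2 ratio between −4.76 and −3.80.

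Baiap2 (ENSMUSG00000025372, chr11:119942763-120006782, plus strand), the founding I-BAR relative, was scarce in the same embryos. Its normalised reads were 42.8, 16.2 and 0 (positive side) and 69.3, 53.5 and 2.88 (negative side). Each side held 1 column at or near 0, and the sides overlapped. The authors' deposited table gave a log2 fold change of −1.09 ± 1.39 (SE, adjusted p = 0.912). That error is too wide to say whether Baiap2 differed.

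Of the LIM adaptors, Tes (ENSMUSG00000029552, chr6:17065149-17105828, plus strand) had normalised reads of 82.1, 40.6 and 50.3 (positive side) and 316.6, 115.9 and 615.7 (negative side). Its sides lay apart, with the lowest negative-side column near the highest positive-side one. Side means were 57.7 ± 21.7 and 349 ± 251 (SD, n = 3 columns each), a 6.06-fold difference. The authors' deposited table gave a log2 fold change of −2.59 ± 0.59 (SE, adjusted p = 0.0179). That is the largest adjusted p-value among the 3 picked genes, and the next among the 10 was 0.811, for both Ezr and Vil1. Without negative-side column 3, which held the most normalised reads, the log2 ratio was −1.89.

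Zyx (ENSMUSG00000029860, chr6:42349828-42360146, plus strand), a zyxin-family adaptor that recruits actin regulators to stressed adhesions, was among the most abundant of the 10. Normalised reads of Zyx were 633.9, 1219 and 1431 (positive side) and 532.5, 1270 and 1306 (negative side). Each side had 1 low column and 2 high ones. The authors' deposited table gave Zyx a log2 fold change of 0.08 ± 0.40 (SE), which is a 95% interval from −0.70 to 0.86, and an adjusted p-value of 0.997. The log2 fold change of Tes lies outside the deposited interval for Zyx, but Tes was picked for that value. The difference between Zyx and Tes was not tested.

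Among the coronins, Coro2a (ENSMUSG00000028337, chr4:46536937-46602202, minus strand) had 0 reads in all 3 positive-side columns against 118, 52 and 12 on the other side. The normalised reads on the negative side were 73.0, 58.0 and 17.3. If reads were counted singly, a count of 0 allows up to 3 reads per column. The positive side would then hold at least 17.2-fold less Coro2a, and at least 13.1-fold less without the highest column. Most blastocyst reads may have been counted in pairs, in which case the limit in reads is higher and both folds are lower. The authors' deposited table gave a log2 fold change of −8.16 ± 1.70 (SE, adjusted p = 0.00371). A fitted value against zeros is no measure of size, and the log2 ratio with a pseudocount of 1 was −5.66.

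Coro1b and Coro1c, the coronins most widely expressed outside blood, were far more abundant than Coro2a. Coro1b (ENSMUSG00000024835, chr19:4148619-4154035, plus strand) had normalised reads of 1014, 864.7 and 1321 against 822.5, 1117 and 774.0. Coro1c (ENSMUSG00000004530, chr5:113842436-113908758, minus strand) had 1260, 1151 and 1110 against 1349, 1132 and 1234. Sides overlapped for both, and Coro1c was the steadiest of the 10 across columns. The authors' deposited table gave Coro1b a log2 fold change of 0.24 ± 0.30 (SE) and Coro1c one of −0.08 with a standard error of 0.25. The corresponding 95% intervals ran from −0.35 to 0.83 and from −0.57 to 0.42.

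None of the 3 microvillus genes, Ezr, Eps8 and Vil1, was called in blastocysts. Ezr (ENSMUSG00000052397, chr17:6738041-6782784, minus strand), which encodes ezrin, had normalised reads of 481.1, 675.9 and 628.5 (positive side) and 885.6, 622.1 and 963.9 (negative side). A single negative-side column fell within the positive-side range. The authors' deposited table gave a log2 fold change of −0.47 ± 0.31 (SE, adjusted p = 0.811).

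Eps8 (ENSMUSG00000015766, chr6:137477245-137654876, minus strand), a direct binding partner of I-BAR proteins, had normalised reads of 237.0, 190.8 and 146.3 (positive side) and 50.7, 343.4 and 46.0 (negative side). Negative-side column 2 was the highest of all 6 columns and the other two on that side were the lowest. The authors' deposited table gave a log2 fold change of 0.39 ± 0.70 (SE, adjusted p = 0.963). Without that column the log2 ratio was 1.96, so a single column set the value for Eps8.

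Vil1 (ENSMUSG00000026175, chr1:74409376-74435559, plus strand), which encodes villin, was close to absent. It had 0 reads in the 3 positive-side columns, against 16, 0 and 14 on the other side. The authors' deposited table gave a log2 fold change of −5.85 ± 3.12 (SE, adjusted p = 0.811). The sides overlapped at 0, so no fold is given. A difference in Vil1 was not detectable at this depth.

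Several of these genes share exon bases with neighbours, and tagmented cDNA does not keep the strand. Baiap2l1 shares 49 exon bases with Bri3 on the opposite strand, which had 147 as its mean and a log2 fold change of 0.92 in the authors' deposited table, the opposite sign to Baiap2l1. It also shares 34 exon bases with Gm15708 on the opposite strand, which had the same sign as Baiap2l1 in the authors' deposited table, with a log2 fold change of −3.84 at a mean of 7.64. The antisense partners of Tes (Gm4876, 144 bases shared) and Coro2a (Gm16731, 329 bases shared) had a mean of 0 in the authors' deposited table. Zyx shares 236 bases with Epha1, whose mean was 117 in the authors' deposited table. Vil1 shares 49 bases with Usp37, whose mean was 186 in the authors' deposited table, and reads of the pair cannot be told apart in those bases.

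In ES cells none of the 10 genes passed the adjusted threshold, and none of the 3 genes picked in blastocysts had an unadjusted p-value under 0.05. The authors' deposited ES cell table listed 9 of the 10 genes (not Vil1), gave 8 of them an adjusted p-value, and called 0, against 0.261% of the 10739 genes tested. Of the 9 genes 1, Ezr, had an unadjusted p-value under 0.05 there, as did 5.62% of tested genes. Positive values stood beside 5 and negative ones beside 4 of them in the authors' deposited table, with a median log2 fold change of 0.05. Columns lay apart between the sides for 3 of the 9 genes. With only 2 columns a side, 40.8% of the 9867 genes both tested and solved lie apart. Fold changes in the authors' deposited ES cell table appear shrunken towards 0, since no standard error exceeded 0.33, so their size cannot be set against that of blastocysts.

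**Figure D2:**
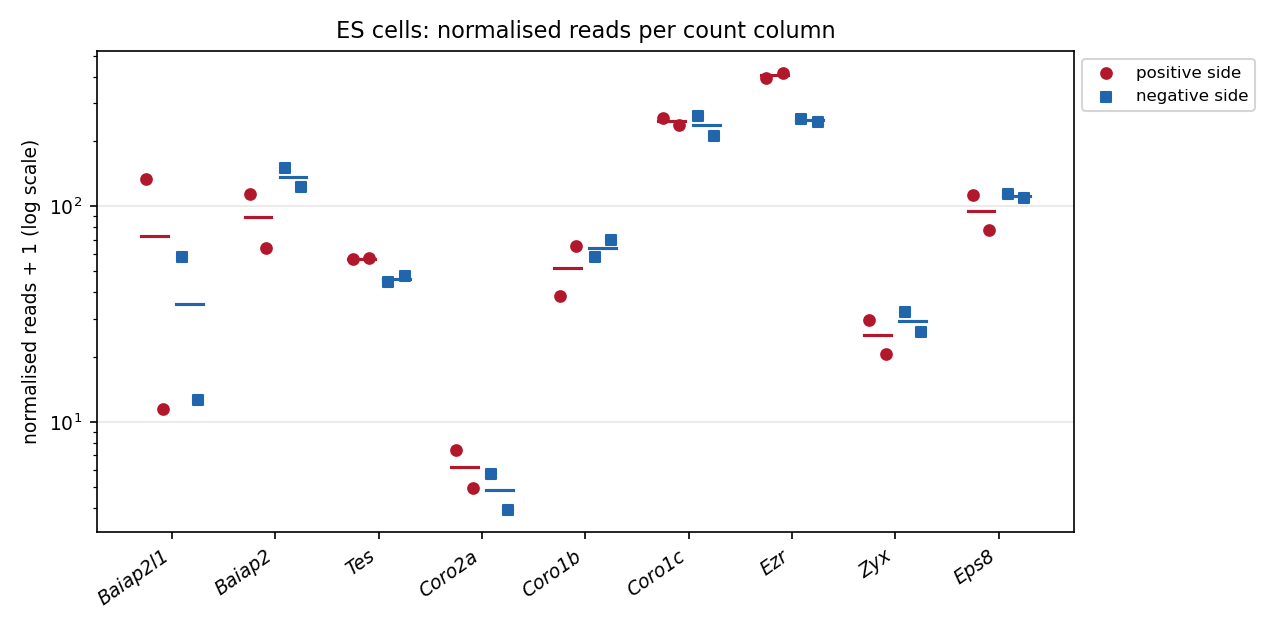
Normalised reads plus 1 (log axis) of 9 of the genes in each ES cell column, circles for the 2 positive-side and squares for the 2 negative-side columns, with lines at the side means. Ezr is higher in both positive-side columns, while Baiap2l1 spreads more within a side than between sides.

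Ezr had normalised reads of 391.2 and 416.1 in the positive-side and 253.9 and 245.4 in the negative-side ES cell columns. The sides lay apart, and the columns within each side were close. Side means were 404 ± 17.6 and 250 ± 5.96 (SD, n = 2 columns each), a ratio of 1.62. The authors' deposited table gave a log2 fold change of 0.60 ± 0.23 (SE), a p-value of 0.00800 from a Wald test (DESeq2) and an adjusted p-value of 0.445. The difference in Ezr did not pass adjustment, also when the adjustment was repeated over every gene with a p-value (0.536) or over genes with a mean of at least 50 (0.339).

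Baiap2l1 had normalised reads of 132.5 and 10.5 (positive side) and 57.1 and 11.6 (negative side) of the ES cell comparison. Each side held 1 high and 1 low column, 12.6-fold apart on the positive and 4.92-fold apart on the negative side. No other of the 9 genes spread by more than 1.78-fold within a side. The authors' deposited table gave Baiap2l1 a log2 fold change of 0.14 ± 0.23 (SE, adjusted p = 1.00). Leaving out 1 column moved the log2 ratio anywhere from −1.61 to 2.53, so no direction can be given for Baiap2l1 in ES cells.

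Tes was steady in ES cells, with normalised reads of 55.9 and 56.6 against 43.7 and 46.4. Its columns lay apart with the positive side higher, by a small margin. The authors' deposited table gave Tes a log2 fold change of 0.22 ± 0.31 (SE) and an unadjusted p-value of 0.490. Coro2a was near the lowest level listed, with 8 and 3 reads against 5 and 3, and the authors' deposited table gave it no adjusted p-value. Whether the positive sides of both tables hold the same genotype is not stated, so the signs of Tes in blastocysts and ES cells cannot be compared.

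Baiap2 had normalised reads of 112.6 and 63.2 against 150.2 and 121.8 in ES cells, the 1 gene of the 9 whose columns lay apart with the positive side lower. The authors' deposited table gave Baiap2 a log2 fold change of −0.46 ± 0.29 (SE) and an unadjusted p-value of 0.112. The remaining 4 genes overlapped between the sides, with deposited log2 fold changes from −0.21 (Coro1b) to 0.05 (Coro1c). Eps8, at 111.8 and 76.4 against 113.1 and 108.2, and Zyx, at 28.7 and 19.8 against 31.4 and 25.1, lay between those 2 genes in the authors' deposited table, with log2 fold changes of −0.17 and −0.11.

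**Figure D3:**
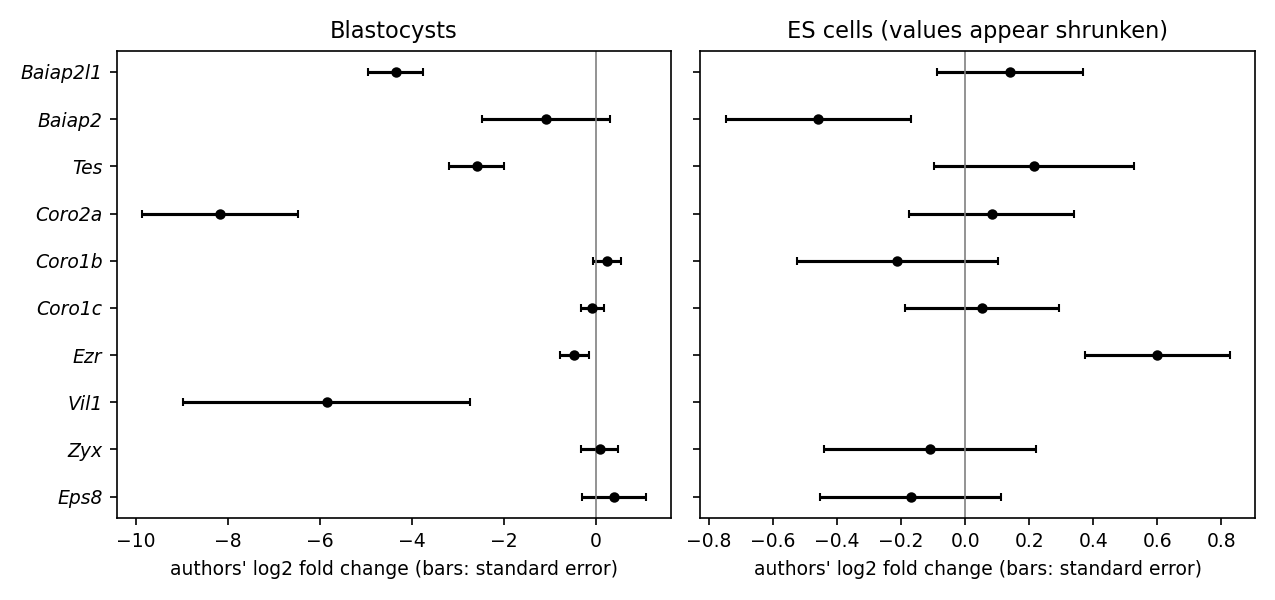
Log2 fold changes of the authors' deposited tables with bars of 1 standard error, blastocysts on the left and ES cells on the right, on axes of different range. In blastocysts Baiap2l1, Tes and Coro2a lie at −4.35, −2.59 and −8.16, and in ES cells the gene farthest from 0 is Ezr at 0.60.

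Within each material the genes were ordered by the authors' mean normalised count per kilobase of the longest transcript in GENCODE M21. In blastocysts the authors' deposited means gave Coro1b 350, Zyx 334, Coro1c 235 and Ezr 224 per kilobase. Below them came Baiap2l1 at 90.4, Tes at 53.7 and Eps8 at 37.0, then Baiap2 at 7.69, Coro2a at 5.95 and Vil1 at 1.60. The ranges over columns overlapped between every pair of neighbours in that order. Coro1c and Baiap2l1, which are not neighbours, also overlapped, because the highest Baiap2l1 column reached 277 per kilobase while its lowest was 3.52.

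In ES cells the authors' deposited means placed Ezr first at 103 per kilobase, with columns from 77.6 to 132, above all columns of every other gene. Coro1c followed at 47.2, also apart from Baiap2 at 27.9. Below Baiap2 came Eps8 at 22.4, Coro1b at 20.2, Baiap2l1 at 16.3 and Tes at 13.4, each overlapping with the gene before it. Zyx at 8.23 lay below every Tes column, and Coro2a at 1.08 below every Zyx column. Coro1b and Zyx, the top pair in blastocysts per kilobase, were at ranks 5 and 8 in ES cells, an order within each table only, since the tables come from different library types and separate normalisation. For Tes, Coro1b and Coro1c the longest transcript is not a coding one. With the longest protein-coding transcript, a choice added after seeing the data, Coro1c passed Zyx in blastocysts (345 against 334), and in ES cells Coro1b rose to rank 3 at 30.2 and Tes to rank 6 at 18.9.

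**Figure D4:**
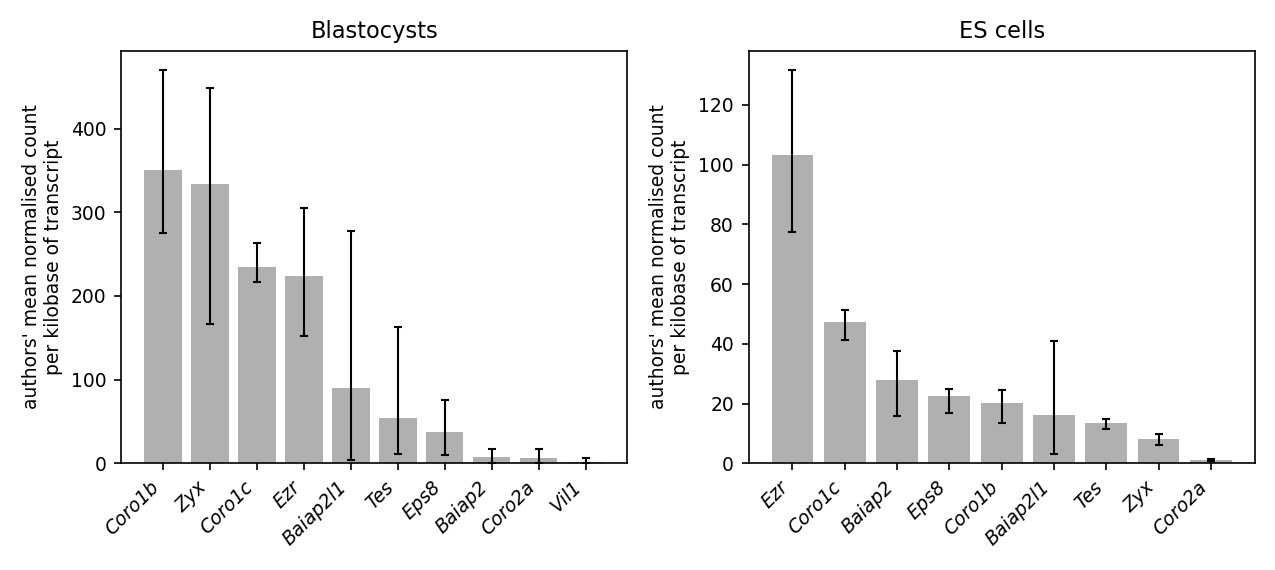
Authors' mean normalised count per kilobase of the longest annotated transcript in blastocysts (left) and ES cells (right), in falling order, with bars from the lowest to the highest column. Baiap2l1 has the widest span relative to its mean among the 7 most abundant genes in blastocysts, and Ezr stands above the others in ES cells.

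Over the 6 blastocyst columns, the genes whose normalised reads were most like those of Baiap2l1 on the log2 scale were Umps (Pearson r = 0.987), Gmps (0.982), Ints3 (0.981), Mrps35 (0.976) and Pcmt1 (0.974), of 6798 genes with a mean of at least 50. Umps makes uridine monophosphate and Gmps guanosine monophosphate, Ints3 is an Integrator subunit, Mrps35 a mitochondrial ribosomal protein and Pcmt1 a protein repair methyltransferase. Their differences were far smaller: the authors' deposited table gave Umps a log2 fold change of −1.12 ± 0.42 (SE, adjusted p = 0.544). With 6 columns that share a side difference, 58 genes reached an r above 0.9, against a median r of −0.0017. Of the 6 other genes of the 10 that reached this mean, Tes had an r of 0.81, Ezr 0.54, Coro1c 0.28, Zyx 0.03, Eps8 −0.31 and Coro1b −0.49. Tes and Baiap2l1 were both picked for the side difference that enters this r, and Coro2a, Baiap2 and Vil1 were below the mean.

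The wider actin and adhesion machinery was looked at in 7 lists of 106 genes in all, without the 10. In blastocysts the authors' deposited table tested 93 of them, called 0 at an adjusted p-value under 0.05 and held 7 at an unadjusted p-value under 0.05. That is 7.53%, where the share of all tested genes was 6.21%. Of those 7 genes 6 were positive, where 408 of the 945 genes under that value were positive over the whole table, and the median log2 fold change of the 93 was 0.08 in the authors' deposited table, against −0.04 over all.

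By role, 1 of the 3 coronins tested, Coro7, a Golgi coronin, had normalised reads of 316.9, 337.0 and 324.5 against 103.9, 276.5 and 103.6, and a deposited log2 fold change of 1.02. Among 7 ezrin relatives and membrane linkers it was Rdx, which encodes radixin, at 656.7, 629.3 and 820.5 against 355.0, 318.9 and 443.1. The authors' deposited table gave Rdx a log2 fold change of 0.92 ± 0.32 (SE, adjusted p = 0.414). Moesin (Msn), the most abundant member of that list, had a log2 fold change of 0.45 ± 0.28 (SE) in the authors' deposited table. Ezrin's sign was thus opposite to that of both relatives, and the difference between them was not tested.

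In the ARP2/3 list, Actr2, a core subunit, had normalised reads of 649.6, 1001 and 1022 against 581.3, 539.6 and 529.4, and a deposited log2 fold change of 0.69, while Actr3 was at 0.11. The remaining genes with an unadjusted p-value under 0.05 were, with values of the authors' deposited table, Lcp1 (log2 fold change 0.50, a filament bundler), Wtip (1.95, a LIM adaptor), Ssh2 (1.51, a cofilin phosphatase) and Actg1 (−0.89, cytoplasmic gamma actin). Actb, the other cytoplasmic actin, was at 0.04 in the authors' deposited table. None of the 3 tested I-BAR relatives was under that value, and the most abundant, Mtss1, had a log2 fold change of 0.16 in the authors' deposited table.

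In ES cells the authors' deposited table tested 89 of the 106 genes and called 0, where 0.261% of all tested genes were called. It held 3 of the 89 at an unadjusted p-value under 0.05, or 3.37%, below the 5.62% of all tested genes. Diaph1, a formin that elongates filaments, had normalised reads of 458.3 and 401.6 against 257.7 and 175.9. The authors' deposited table gave Diaph1 a log2 fold change of 0.83 ± 0.24 (SE, adjusted p = 0.104). Diaph3, its relative, had the opposite sign at −0.58 in the authors' deposited table. Slc9a3r1, a scaffold that binds ezrin at the membrane (also called EBP50), had normalised reads of 122.1 and 75.1 against 197.8 and 169.1, a deposited log2 fold change of −0.69 and an adjusted p-value of 0.550. Ezr and Slc9a3r1 therefore had opposite signs in ES cells.

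The labelled material was checked against marker genes. In blastocysts all 12 trophectoderm and all 10 inner cell mass and pluripotency markers had a mean above 0. So had 17367 of all 45706 genes listed. Of the 10 fibroblast genes 8 had a mean of 0. The part of cell makeup in the differences above was not tested. Summed over the 8 inner cell mass and pluripotency genes with reads by column, normalised reads were 1887, 1012 and 935.9 on the positive and 2020, 1880 and 2463 on the negative side, with positive-side column 1 just above negative-side column 2. Tfcp2l1 and Dppa5a, the most abundant of the 10, are not in these sums, and the authors' deposited table gave them log2 fold changes of 0.02 and −0.13. Over the 5 trophectoderm genes with reads by column the sums overlapped between the sides, at 1992, 2631 and 3136 against 1608, 2267 and 2014. Cdx2, Gata3, Eomes, Id2 and Dppa1 are not in these sums. Nor are Krt18 and Krt8, the most abundant of the 12, which were negative in the authors' deposited table. Of the 12 trophectoderm genes 7 were positive and 5 negative there, with a median log2 fold change of 0.13. Of the 10 inner cell mass and pluripotency genes 4 were positive and 6 negative in the authors' deposited table, with a median log2 fold change of −0.09. In the authors' deposited table Nanog (log2 fold change −1.93), Tdgf1 (−1.75) and Pou5f1 (−1.21) were negative at an unadjusted p-value under 0.05, as were the trophectoderm keratins Krt8 (−0.87) and Krt18 (−0.63), while Krt7 (1.33) and Gata3 (0.52) were positive. Over the 6 primitive endoderm genes with reads by column the sums overlapped, at 1966, 1764 and 1387 against 1894, 2065 and 2238. Among those 6 genes Sox7 lay apart, at 198.5, 107.6 and 171.4 against 0, 46.8 and 2.88 normalised reads. The authors' deposited table gave Sox7 a log2 fold change of 3.27 and an unadjusted p-value under 0.05. Lama1 and Col4a1, the most abundant of the 8 primitive endoderm genes, are not in these sums. Their deposited log2 fold changes were 0.59 and 0.14. Of the 7 primitive endoderm genes tested 3 were positive and 4 negative.

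In ES cells all 10 pluripotency genes were listed, and so were all 10 fibroblast genes, the cells of the feeder layer. Also listed were 8 of the 12 trophectoderm and 5 of the 8 primitive endoderm genes. Summed normalised reads of the fibroblast genes were 710.5 and 597.8 (positive side) and 664.6 and 2048 (negative side). Negative-side column 2 was the highest. The part of feeder RNA in the ES cell values was not tested.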

How the data were processed

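RNA sequencing results were deposited as 1 table per material, with 0 columns of per-sample values. Per the submitters' processing notes, STAR 2.4.0b, SAMtools, bedtools, featureCounts of Subread 2.0.1 and DESeq2 1.34.0 were used on GRCm38. Per the file headers, the signal column is the authors' mean of normalised read counts and the log2 columns are the authors' fold change with its error. The authors' deposited score is a Wald statistic, and the p-value columns are the authors' deposited two-sided and adjusted values. Genes with an adjusted p-value under 0.05 counted as called.

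Whole reads per library were solved from the deposited means (Python 3.11.15, numpy 2.4.6, numba 0.67.0). In blastocysts 16712 of 16716 genes (the 10 genes and all with a p-value and a mean under 800) had 1 solution, from which a refitted log2 fold change differed from the deposited one by at most 1.5e-14. In ES cells 12137 of 12137 genes with a mean under 350 had 1 solution. On simulated data, 200 of 200 blastocyst genes were recovered exactly. Blastocyst reads were odd in only 3.09% to 5.82% of nonzero values, so most reads may have been counted in pairs. Amplified reads are not independent molecules, so limits from a count of 0 cover counting error only, and only for reads counted singly. Sides are the signs of the deposited values.

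The genes and lists were chosen with earlier results of these data known. Named from the lists were genes with an unadjusted p-value under 0.05 and the most abundant; Baiap2l1 was compared with the 5 genes of highest Pearson r.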

Additional observations from a re-analysis of the deposited data

How the results depend on the processing

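In blastocysts 3 of the 10 genes were called, 2 at an adjusted p-value under 0.01 (Baiap2l1 and Coro2a), 3 with adjustment over every gene with a p-value and 2 with a mean of at least 50 (Baiap2l1 and Tes, Coro2a being below that mean). In ES cells 0 were called under each of these settings. The 3 genes called in blastocysts were picked for an adjusted p-value under 0.05 there, so nothing is read from their counts. No paired analysis was possible because the tables hold no value per sample and the recovered columns carry no replicate number. For single genes, alternative log2 values were ratios of recovered reads with a pseudocount of 1 or 0.5, or without 1 column. Of these, 99 of 134 lay within the spread between columns of the deposited value, and 35 did not. In blastocysts the 35 held every alternative for Coro2a and most for Vil1, where zeros make the ratio depend on the pseudocount. In ES cells they held every alternative for Tes and most for Ezr, each farther from 0 than the deposited value and of the same sign. No count of Tes or Ezr was 0 there, and their columns within a side were close. Without 1 column, 8 of 10 log2 ratios kept their sign in blastocysts (not Zyx, −0.23 to 0.35, nor Eps8, −0.04 to 1.96). In ES cells 4 of 9 did (Baiap2, Tes, Coro2a and Ezr, the last from 0.65 to 0.73). Where the sides lay apart or a whole side was at 0, no single column could change the sign. That held for Baiap2l1, Tes, Coro2a and Vil1 in blastocysts and for Baiap2, Tes and Ezr in ES cells, so their kept signs are no check. Depth limits Vil1, Coro2a and Baiap2, whose blastocyst columns held 0 to 118 reads.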
